A study of Mus musculus with 2 samples.

Results

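The cytosolic ribosomal protein genes encode the protein subunits of the ribosomes that translate mRNA in the cytoplasm. They were chosen by name, as all listed genes whose symbol is Rpl or Rps followed by digits with at most the letter a, l or x, together with Rplp0, Rplp1, Rplp2 and Rpsa. This gave 80 of 32285 listed genes, 49 of the large and 31 of the small subunit. Their UMIs (unique molecular identifiers, each a counted mRNA molecule) were read from single cells of the popliteal lymph nodes (PLNs), the draining nodes of the hindpaw, in male TNF-Tg mice, which carry a TNF transgene on a C57BL/6 background and develop inflammatory-erosive arthritis. The Early library came from animals aged 5 to 6 months and the Advanced library from animals aged over 8 months, and each pooled 6 PLNs of 3 mice. Both groups carried the transgene, so no comparison with wild-type mice was possible. With 1 pooled library per stage there was no replicate, no test and no p-value, and stage, age and library are the same split. All intervals below are 95% intervals that cover counting error only.

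Ribosomal proteins are made in step with each other, since every ribosome takes 1 copy of nearly all of them, with the stalk proteins P1 and P2 (Rplp1 and Rplp2) bound to P0 (Rplp0) as the known exception. Their mRNAs are short, stable and abundant, and most begin with a 5′ terminal oligopyrimidine (TOP) tract through which the mTOR pathway controls how strongly they are translated. Resting lymphocytes are small cells with little cytoplasm, and activation, division and antibody secretion each call for more protein synthesis. Counts of mRNA molecules say nothing directly about ribosome number or translation.

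The 8221 Early and 8183 Advanced cells that had at least 200 genes held medians of 6643 and 7837 UMIs per cell. Fixed thresholds on raw UMIs of marker genes gave the 9 groups compared here, among them naive B cells (2631 Early and 1797 Advanced cells), activated B cells (1401 and 1314), cycling B cells (81 and 101), secreting cells with Jchain and Xbp1 (37 and 47) and myeloid cells (197 and 360). T cells were few in the Early library, with 9 naive, 88 activated and 28 cycling T cells against 146, 319 and 38, and there were 29 and 28 plasmacytoid cells with Siglech. Many cells were in none of these groups. The largest class of all was B cells that met neither the naive nor the activated threshold, with 3477 Early and 2671 Advanced cells (42.3% and 32.6% of cells), beside 33 and 596 such T cells, 72 and 341 cells with early lymphoid genes and 138 and 425 cells with no clear lineage. Markers kept out of the thresholds were higher in the groups they mark. The plasma cell receptor gene Tnfrsf17, for example, stood at 59.8 and 47.6 UMIs per 1000000 UMIs of the cell group (CPM) in secreting cells against 0.0557 and 0 CPM in naive B cells, and Cdk1 at 199 and 151 CPM in cycling against 0.557 and 0.815 CPM in naive B cells. Margins were narrower for activated B cells. Against naive B cells, Cd69 stood at 197.8 and 183.5 against 150.5 and 137.1 CPM. Mir155hg stood at 6.01 and 7.19 against 3.57 and 3.11 CPM, and Nr4a3 at 5.09 and 4.79 against 0.669 and 1.48 CPM. T cell marker UMIs in naive B cells, which should lack them, came to 6.07 CPM (Early) and 39.5 CPM (Advanced), and 19 cell barcodes were found in both libraries.

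Sequences around the start of transcription are shown for the 7 members with an uneven share of the ribosomal protein UMIs, as defined below, that was at least 1.9-fold from the reference group in 1 or more comparisons. Of the 80 members, 60 had an entry in the RefSeq promoter table (GRCm38.p6). Each line runs 5′ to 3′ on the gene's own strand, from 60 bases before the first listed start to 30 bases after it, and capitals mark runs of 8 or more C or T within 30 bases of the start, the letters of which a TOP tract is made.
Rps27l, chr9:66946026-66946115, plus strand: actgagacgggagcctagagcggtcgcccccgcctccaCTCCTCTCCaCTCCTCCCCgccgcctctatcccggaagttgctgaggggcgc
Rps27, chr3:90213619-90213708, minus strand: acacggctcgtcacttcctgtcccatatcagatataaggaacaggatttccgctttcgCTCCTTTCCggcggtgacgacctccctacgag
Rpl31, chr1:39367791-39367880, plus strand: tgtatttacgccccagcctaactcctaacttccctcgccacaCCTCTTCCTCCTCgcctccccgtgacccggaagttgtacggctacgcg
Rps2, chr17:24720003-24720092, plus strand: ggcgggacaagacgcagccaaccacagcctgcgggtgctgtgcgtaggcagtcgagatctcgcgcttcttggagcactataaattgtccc
Rplp0, chr5:115559407-115559496, plus strand: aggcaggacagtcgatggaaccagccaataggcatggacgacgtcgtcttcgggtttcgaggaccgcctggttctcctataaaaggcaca
Rpl41, chr10:128549139-128549228, minus strand: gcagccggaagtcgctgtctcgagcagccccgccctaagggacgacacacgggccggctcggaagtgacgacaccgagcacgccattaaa
Rpl10, chrX:74270756-74270845, plus strand: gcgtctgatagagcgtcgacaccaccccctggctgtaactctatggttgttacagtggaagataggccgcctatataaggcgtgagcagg

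Rps27 and Rpl31 each hold 1 such run and Rps27l holds 2, whereas the windows of Rps2, Rplp0, Rpl41 and Rpl10 hold none. Whether transcription begins at the listed start was not tested. A window without a run therefore does not show that the gene lacks a TOP tract, which could lie outside the window. Such a run was present near a listed start of 34 of the 60 members (56.7%) and of 6965 of all 27025 genes in the table (25.8%). The letters CCGGAAGT, a core bound by ETS family factors, occur on either strand within the 300 listed bases of 12 of the 60 members (20%) and of 4.31% of all genes, and they can be read in the windows of Rps27l, Rpl31 and Rpl41. These matches describe the letters of the windows and were not related to the counts.

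Over whole libraries the members held 33.98% (Early) and 34.12% (Advanced) of all UMIs. In both libraries 77 members reached 100 CPM, with medians of 4240 and 4155 CPM over the 80 members. The remaining 3 stayed under 10 CPM: Rpl10l with 1 UMI in each library, Rpl39l with 39 and 66 UMIs, and Rpl3l with 67 and 127 UMIs. All 3 are close relatives of a member that every cell uses, and they are known for high levels in testis (Rpl10l and Rpl39l) or muscle (Rpl3l).

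The first question was how the share of UMIs in ribosomal protein genes differed between cell groups. Naive B cells gave 35.7% in the Early library (35.6% to 35.7%) and 35.1% in the Advanced library (35.1% to 35.1%), and activated B cells were within 1 percentage point of them, at 35.1% and 34.5%. Of the 9 groups naive T cells stood highest, at 46.1% in the Advanced library, a ratio of 1.31 to naive B cells (1.31 to 1.32), and at 41.4% in the 9 Early cells. The high share was not particular to them, since the T cells outside the groups had 45.7% (596 Advanced cells) and 41.99% (33 Early cells). B cells outside the groups had 35.5% and 35.2%. Cycling B cells had 30.2% and 29.7%, a ratio to naive B cells of 0.846 and 0.848. Plasmacytoid cells had 24.97% and 25.9%, myeloid cells 22.2% and 22.6%, and secreting cells 22.6% and 18.4%.

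Spread over cells was wider than these differences in some groups and narrower in others. The middle 50% of naive B cells lay between 32.3% and 38.8% in the Early and between 31.1% and 38.5% in the Advanced library, which overlap the ranges of activated B cells. The middle 50% of naive T cells of the Advanced library lay above them, between 41.6% and 49.3%. Myeloid cells lay below, between 14.8% and 25.5% in the Early and between 14.9% and 26.7% in the Advanced library. Secreting cells were the most spread out, with quartiles of 8.41% and 30.9% in the Early and of 9.91% and 25.6% in the Advanced library.

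**Figure D1:**
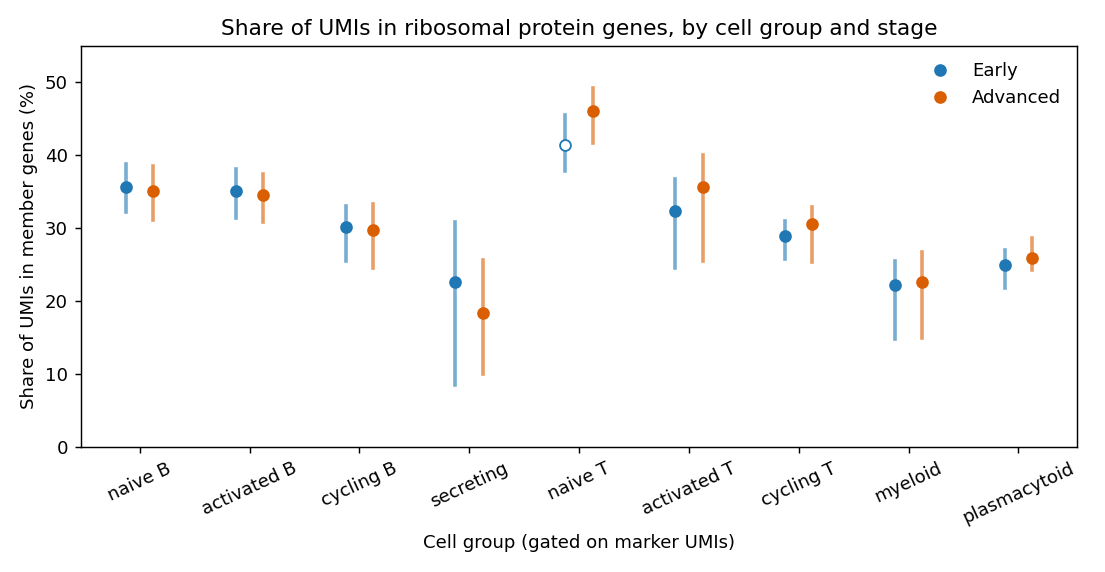
Share of UMIs in ribosomal protein genes (vertical axis, percent of all UMIs) for each cell group (horizontal axis) in the Early and Advanced libraries, as points for summed cells and bars for the middle 50% of cells, with an open point for a group under 20 cells. Naive T cells stood highest (46.1% in the Advanced library), naive and activated B cells near 35%, and myeloid and secreting cells lowest.

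A lower share did not mean fewer ribosomal protein UMIs counted in a cell. Secreting cells held on average 9793 member UMIs per cell (Early) and 7634 (Advanced), against 2433 and 2636 in naive B cells, which is 4.03 and 2.90 times as many. They were a mixed group, split below. Their other UMIs were 7.66 and 6.95 times those of naive B cells. In cycling B cells the member UMIs per cell were 2.84 and 2.89 times and the other UMIs 3.64 and 3.68 times those of naive B cells, and in myeloid cells 1.42 and 1.27 times against 2.76 and 2.34 times. Activated T cells of the Advanced library were the exception, with 0.764 times the member UMIs and 1.18 times the other UMIs of naive T cells. Naive T cells held 1.57 times the member UMIs of naive B cells in that library and 0.991 times the other UMIs. The gates bear on all these ratios per cell. Minimum raw UMIs of marker genes are met more easily by deep cells, while naive B cells needed an activation sum of 1 or less. Median UMIs per cell were 41810 and 36330 in secreting, 20750 and 21710 in cycling B and 6233 and 6959 in naive B cells. The part of the gates in these ratios was not tested, and they were not repeated at matched depth.

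The secreting group was not of 1 kind, and its label held for part of the cells. In 16 Early and 21 Advanced cells immunoglobulin genes, which encode antibody, took 40% or more of the UMIs. In 16 and 18 cells they took less than 10%, and 14 and 16 of those cells had 3 or more UMIs of the division genes Mki67, Top2a and Birc5, which none of the immunoglobulin-rich cells had. The member share was 32.6% and 27.9% in the low-immunoglobulin cells and 8.27% and 10.1% in the immunoglobulin-rich cells. With immunoglobulin UMIs left out of the total, the values were 33.0% and 28.3% in the former and 20.5% and 23.4% in the latter. The median member UMIs per cell were 15870 and 7761 in the former but 3107 and 3475 in the latter. The means given above for secreting cells are thus not those of the immunoglobulin-rich cells. The immunoglobulin cut-offs were chosen after the data were seen.

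Myeloid cells also split. Among those dominated by the monocyte genes Ace, Adgre4, Cx3cr1 and Csf1r (118 Early and 207 Advanced cells) the member share was 18.1% and 19.1%, and among those dominated by the dendritic cell genes Flt3, Zbtb46, Clec9a, Xcr1 and Ccr7 (43 and 77 cells) it was 26.5% and 26.1%. The middle 50% of cells lay between 14.0% and 19.8% in the Early monocyte-gene cells and between 20.7% and 31.4% in the dendritic-gene cells, which do not overlap. In the Advanced library these ranges were 13.9% to 22.1% and 20.2% to 29.9%. This split was also made after the data were seen.

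The depth of a cell moved with its share. Naive B cells of 2500 to 5000 UMIs had 27.99% (Early) and 23.5% (Advanced), those of 5000 to 7500 UMIs 35.3% and 34.4%, and those of 7500 to 10000 UMIs 37.3% and 36.7%. The 26 Advanced naive B cells below 2500 UMIs had 8.98%. Cells under 15% made up 0.494% of Early (0.263% to 0.843%) and 1.56% of Advanced naive B cells (1.04% to 2.24%), and their median mitochondrial share was 9.25% and 16.6% against 5.16% and 5.31% in all naive B cells. In the Advanced library activated T cells went from 25.9% at 2500 to 5000 UMIs to 44.4% above 20000 UMIs. Between 5000 and 7500 UMIs the Advanced groups kept the order of the pooled values, with naive T cells at 42.2%, naive B cells at 34.4%, activated B cells at 32.9%, activated T cells at 29.4% and myeloid cells at 16.9%, apart from activated T cells, which stood below both B cell groups. The part of cell integrity in the low shares was not tested.

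**Figure D2:**
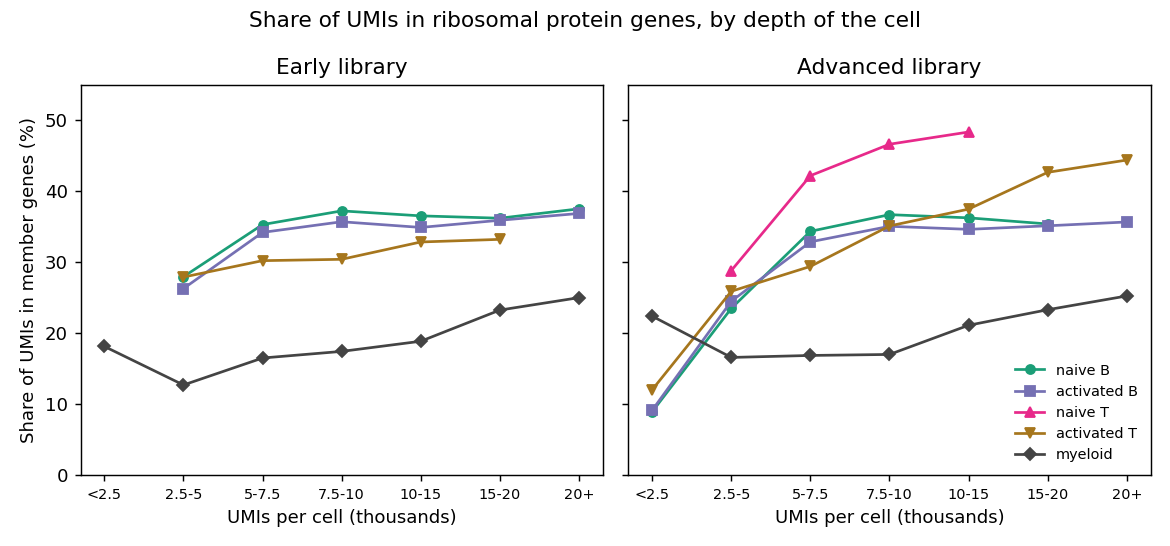
Share of UMIs in ribosomal protein genes (vertical axis, percent) in cells grouped by their total UMIs (horizontal axis, in units of 1000), in the Early (left) and Advanced (right) library, with 1 line per cell group and no point where a bin held under 5 cells. Naive B cells stood at 23.5% between 2500 and 5000 UMIs and at 36.7% between 7500 and 10000 UMIs in the Advanced library, and myeloid cells stayed below 26% at every depth.

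The share is the sum of the members' CPM, so the 2 measures are not independent. Against naive B cells the median CPM ratio over the members was 0.988 in activated B, 0.877 in cycling B and 0.593 in secreting cells. It was 0.677 in myeloid and 0.7435 in plasmacytoid cells. The count took genes of at least 100 CPM in 1 of the groups that were at least 1.5-fold apart in the same direction in every library compared, with intervals that left out 1. No member was counted higher or lower in activated against naive B cells, where 0.896% of all genes were higher and 0% lower. In cycling B cells 1 member, Rps27l, was higher (39.3% of all genes) and 4 were lower (11.8% of all genes), namely Rpl37a, Rps21, Rps24 and Rps27. In secreting cells 43 of 77 members were lower (34.0% of all genes) and only Rps27l was higher (22.5%). Immunoglobulin genes took 25.1% and 30.1% of their UMIs, and with these and mitochondrial UMIs left out the member share was 31.3% and 27.3%, against 38.1% and 37.6% in naive B cells. In myeloid cells 36 of 77 were lower (18.1%) and only Rps27l was higher (34.4%), and in plasmacytoid cells 18 were lower (14.8%) and Rpl31 and Rps27l were higher (33.3%).

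The T cell comparisons rest on the Advanced library alone. In naive T against naive B cells 12 of 76 members were higher (13.4% of all genes) and none was lower (27.1% of all genes). In activated against naive T cells Rps27l alone was higher (19.8%) and no member was lower (2.77%), with a median CPM ratio of 0.786 over the members. In cycling against naive T cells Rps27l was higher (57.1%) and 36 of 77 members were lower (13.2%). A scaling by trimmed means of M values (TMM), which sets the bulk of genes level between groups, moved all log2 ratios by −0.41 and −0.33 in cycling B cells, −0.34 and −0.20 in myeloid cells, −0.37 and −0.33 in plasmacytoid cells and 0.13 and 0.29 in secreting cells. In the Advanced T cell comparisons it moved them by 0.12 in naive, −0.26 in activated and −0.70 in cycling T cells. With it the members counted lower were 30 in cycling B cells, 59 in myeloid, 56 in plasmacytoid, 28 in secreting, 50 in activated T and 71 in cycling T cells, and 33 were higher in naive T cells. The share of all genes counted under this scaling is not given, so these counts are not read as a result about the members.

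The second question was which members were uneven. Each member's UMIs were divided by all member UMIs of the group, and this share of the pool was compared with the reference group. It does not depend on the scaling of other genes, and a member can be higher by it without a higher CPM. A member was called uneven where the ratio was at least 1.5-fold from 1 in each library compared, with intervals that left out 1. Activated B cells had no uneven member among 77, and all 77 ratios to naive B cells lay between 0.926 and 1.23 (mean of both libraries). Cycling B cells had 6 higher and 1 lower, secreting cells 7 and 1, myeloid cells 2 and 2, and plasmacytoid cells 5 and 1. Of the T cell groups of the Advanced library, naive T cells had 1 higher, activated T cells 1 higher, and cycling T cells 7 higher and 2 lower.

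**Figure D3:**
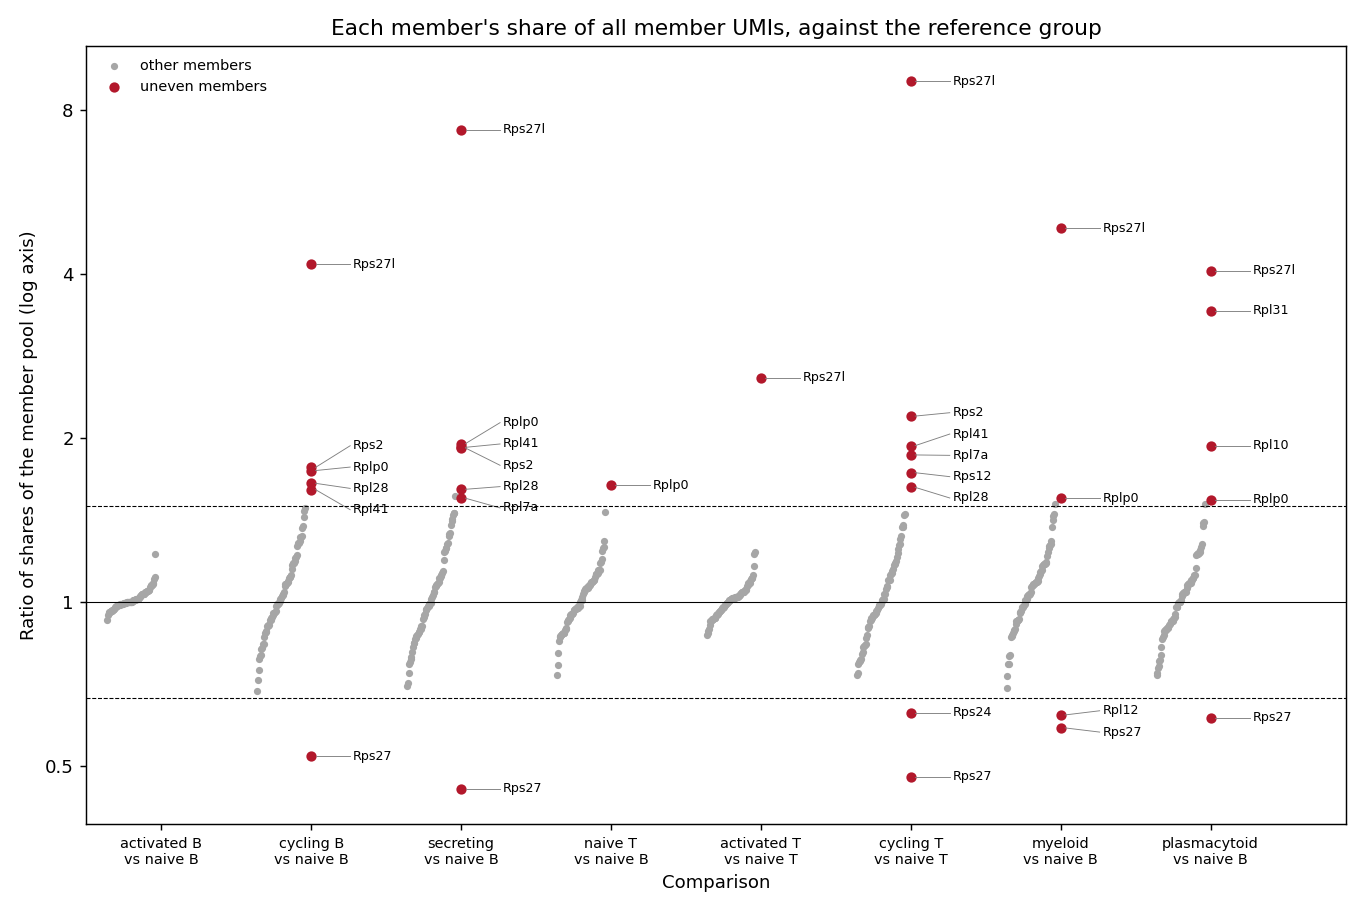
Ratio of each member's share of all ribosomal protein UMIs in a group to that in its reference group (vertical axis, log scale, mean of both libraries or the Advanced library alone for T cells), for 8 comparisons (horizontal axis). Grey points are members within the rule, named red points the uneven members, and dashed lines mark 1.5-fold. Rps27l was the highest uneven member in 6 comparisons and Rps27 the lowest in 5, and activated B cells had no uneven member.

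Rps27l and Rps27 were the members furthest from their references, in opposite directions. They are paralogs that both encode the small subunit protein eS27. Rps27l (ENSMUSG00000036781; GRCm38, chromosome 9, 66946086 to 66949516) is known as a target of p53, and Rps27 (ENSMUSG00000090733) lies on chromosome 3, 90212522 to 90213651. The Rps27 share of the pool was 3.66% in Early and 4.06% in Advanced naive B cells. It was 1.86% and 2.18% in cycling B cells, 1.58% and 1.94% in secreting cells, 2.09% and 2.46% in myeloid cells and 2.29% and 2.45% in plasmacytoid cells. Each of these values lies below both naive B values.

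Single cells showed the same order for Rps27. Among cells with at least 500 member UMIs, the middle 50% of naive B cells lay between 3.31% and 4.21% in the Early and between 3.68% and 4.66% in the Advanced library. Cycling B cells lay between 1.61% and 2.44% and between 1.97% and 2.82%, below those of naive B cells in each library. Cycling T cells of the Advanced library lay between 1.26% and 1.94%, against 2.71% to 3.23% in naive T cells. The CPM of Rps27 was 13070 and 14240 in naive B, 5613 and 6483 in cycling B, 3569 and 3568 in secreting and 4645 and 5567 in myeloid cells.

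Rps27l took 0.0297% and 0.0277% of the pool in naive B cells. It took 0.128% and 0.112% in cycling B cells, a ratio of 4.31 in the Early (3.95 to 4.70) and 4.05 in the Advanced library (3.71 to 4.42). In secreting cells the ratio was 6.68 (6.12 to 7.28) and 8.14 (7.45 to 8.89), in myeloid cells 5.07 (4.70 to 5.48) and 4.66 (4.33 to 5.02), and in plasmacytoid cells 4.41 (3.72 to 5.20) and 3.74 (3.096 to 4.48). Against naive T cells of the Advanced library the ratio was 2.58 in activated T cells (2.10 to 3.21) and 9.05 in cycling T cells (7.40 to 11.2). A UMI of Rps27l was found in 49.7% of Early and 50.7% of Advanced naive B cells with at least 500 member UMIs, and in 98.7% and 92.9% of cycling B cells, which were deeper. No cell held more than 18.3% of the Rps27l UMIs of a group in these cells.

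Per 1000 Rps27 UMIs there were 8.10 Rps27l UMIs in Early and 6.82 in Advanced naive B cells, and 10.9 and 8.86 in activated B cells. The values were 68.7 and 51.5 in cycling B cells, 125 and 116 in secreting cells, 72.0 and 52.5 in myeloid cells and 57.1 and 42.2 in plasmacytoid cells. Among T cells they were 6.15 in naive (Advanced), 26.1 and 16.5 in activated and 153 and 116 in cycling cells. A further locus was also counted. Rps27rt, an intronless copy of Rps27 that the name pattern leaves out, had between 25.02 and 39.4 UMIs per 1000 Rps27 UMIs in every group and library. The highest of these values rests on 25 Rps27rt UMIs in the 9 Early naive T cells. Such values cannot tell Rps27rt mRNA from stray Rps27 reads, and they say nothing about the counts of Rps27l. How far reads of near-identical copies were lost or shared was not tested.

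**Figure D4:**
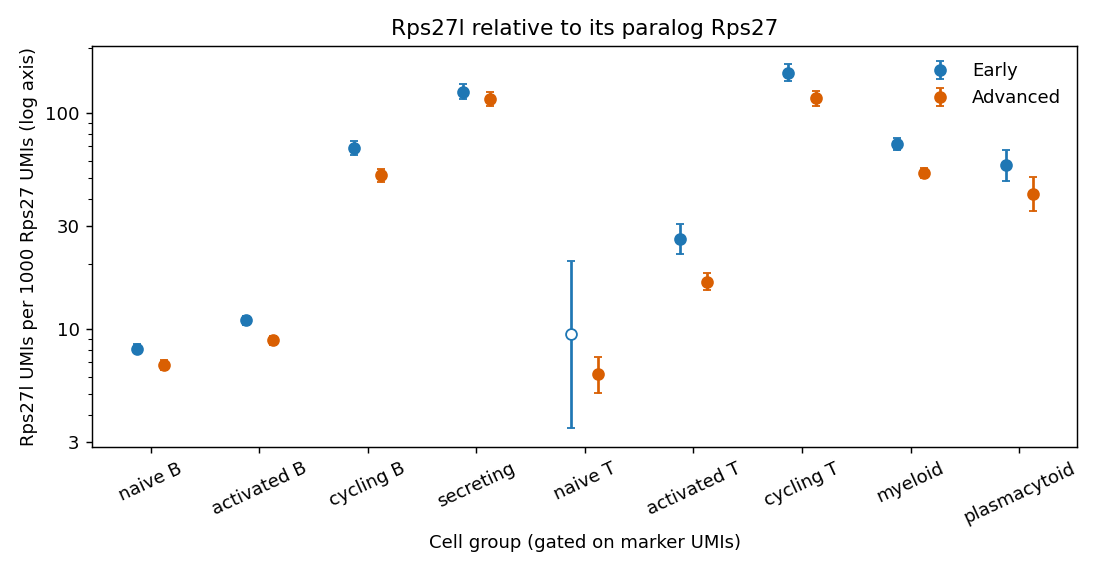
UMIs of Rps27l per 1000 UMIs of its paralog Rps27 (vertical axis, log scale) for each cell group (horizontal axis) in the Early and Advanced libraries, with exact intervals that cover counting error only and an open point for a group under 20 cells. Naive B, activated B and naive T cells stood below 11, and cycling and secreting cells between 51 and 154.

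Rplp0, the stalk base that holds the P1 and P2 proteins, was uneven in 5 comparisons. Its share of the pool was 0.921% and 0.891% in naive B cells, 1.60% and 1.56% in cycling B, 1.81% and 1.74% in secreting, 1.41% and 1.40% in myeloid and 1.39% and 1.41% in plasmacytoid cells. In naive T cells it was 1.46% in the Advanced library, 1.64 times the naive B value (1.60 to 1.68). Naive B cells were thus the lowest of these groups by share of the pool, though not by CPM. The CPM of Rplp0 was 3284 and 3127 in naive B, 4838 and 4642 in cycling B and 4076 and 3198 in secreting cells. Myeloid cells had 3135 and 3176 CPM and plasmacytoid cells 3459 and 3655 CPM. Its partners were near 1: ratios to naive B cells ranged from 0.935 to 1.05 for Rplp1 and from 0.967 to 1.16 for Rplp2 in cycling B, secreting, myeloid and plasmacytoid cells, and were 1.26 and 1.09 in naive T cells. Rpsa, the small subunit protein also known as a laminin receptor, had ratios of 1.42 and 1.34 in cycling B cells and did not reach 1.5-fold in any comparison.

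Rps2, Rpl28 and Rpl41 were uneven in cycling B, secreting and cycling T cells. Rps2, a small subunit protein near the mRNA entry channel, took 0.773% and 0.739% of the pool in naive B, 1.39% and 1.29% in cycling B and 1.75% in Advanced cycling T cells, where naive T cells had 0.797%. The ratios for cycling B cells were 1.79 and 1.75 for Rps2, 1.68 and 1.63 for Rpl28 and 1.61 and 1.61 for Rpl41, which encodes a peptide of the large subunit. For secreting cells they were 2.06 and 1.79 for Rps2, 1.66 and 1.57 for Rpl28 and 1.94 and 1.91 for Rpl41, with Rpl7a at 1.55 and 1.56. The CPM of these members was not higher in both libraries by a like margin. Rps2 had 3594 and 2429 CPM in secreting against 2758 and 2591 CPM in naive B cells. Rpl28 had 3449 and 2520 against 3285 and 3069 CPM, and Rpl7a 1219 and 971 against 1246 and 1188 CPM. Rpl41 had 6931 and 5704 against 5651 and 5695 CPM. In cycling T cells the ratios to naive T cells were 2.20 for Rps2, 1.94 for Rpl41, 1.87 for Rpl7a, 1.73 for Rps12 and 1.63 for Rpl28. Rps24 was lower there, at 0.627.

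In the immunoglobulin-rich secreting cells alone, 4 members were higher and 1 lower than in naive B cells. Rps27l had ratios of 12.8 in the Early (11.0 to 14.9) and 9.87 in the Advanced library (8.53 to 11.4), Rpl41 2.55 and 2.27, Rplp0 1.87 and 1.95, and Rpl10 1.83 and 1.72, and Rps27 was lower at 0.499 and 0.552. Rps2 had 1.31 and 1.12, and Rpl28 had 1.28 and 1.24. In these cells Rps2 and Rpl28 did not pass the rule that they passed in the whole secreting group.

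Plasmacytoid cells had a set of their own by this rule. Rpl31, of the large subunit (GRCm38, chromosome 1, 39367842 to 39371911), took 1.04% of the pool in the Early and 1.15% in the Advanced plasmacytoid cells, against 0.325% and 0.313% in naive B cells, a ratio of 3.20 (3.02 to 3.39) and 3.68 (3.48 to 3.88). In the 8 other groups it took between 0.291% and 0.472%. Among cells with at least 500 member UMIs the middle 50% of plasmacytoid cells lay between 0.675% and 1.69% in the Early and between 1.01% and 1.69% in the Advanced library, above those of naive B cells at 0.233% to 0.412% and 0.224% to 0.395%. Rpl10, which joins the large subunit late in its assembly, had ratios of 1.901 and 1.98. Rplp0 stood at 1.504 and 1.58, and without the cell that held most of its UMIs the Early ratio was 1.47.

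Myeloid cells had Rpl12, of the large subunit stalk base, as a second lower member beside Rps27. Its share of the pool was 1.246% and 1.22% in naive B and 0.773% and 0.759% in myeloid cells, a ratio of 0.620 (0.603 to 0.638) and 0.622 (0.609 to 0.637). No other comparison called it. Its share was also below the naive B values, short of the rule, in plasmacytoid (0.902% and 0.929%), secreting (0.972% and 0.988%) and cycling B cells (1.04% and 0.991%). In naive T cells of the Advanced library it was higher, at 1.53%. Within myeloid cells it was 0.642% and 0.756% in monocyte-gene cells and 0.867% and 0.713% in dendritic-gene cells, so the direction of that difference was not the same in both libraries.

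Rpl3l was found mostly in myeloid cells, at low counts. It had 60 of its 67 UMIs in Early myeloid cells, and in the Advanced library 83 of 127 in myeloid cells and 28 in cells with early lymphoid genes. A UMI was present in 16.2% of Early (11.4% to 22.1%) and 13.3% of Advanced myeloid cells (10.0% to 17.3%), against 0.0380% and 0.0556% of naive B cells. Within myeloid cells 56 Early and 74 Advanced UMIs lay in monocyte-gene cells and 2 and 3 in dendritic-gene cells, with at most 8 UMIs in 1 cell. Per 1000 UMIs of Rpl3, the widely expressed paralog, there were 10.4 and 8.78 Rpl3l UMIs in myeloid cells and 0.0227 and 0.0303 in naive B cells. Rpl39l was scattered: 13 Early UMIs lay in 2 activated T cells, and 18 Advanced UMIs in 5 myeloid cells with 13 in 1 of them. Rpl10l had a single UMI in each library.

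Other members of the named set stayed within the rule in these groups, apart from Rpl10. Ratios to naive B cells in cycling B, secreting, myeloid and plasmacytoid cells ranged from 0.868 to 1.22 for Rpl22, from 1.05 to 1.49 for Rpl3, from 0.788 to 0.934 for Rpl13a, from 0.997 to 1.12 for Rps4x, from 0.812 to 1.05 for Rpl39, from 1.246 to 1.34 for Rps6, whose protein is the phosphorylation target read as a sign of mTOR activity, and from 0.958 to 1.19 for Rps3. Rpl10 was called in plasmacytoid cells and stood at 1.41 and 1.49 in myeloid cells.

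Other paralogs, which the name pattern misses, also differed between groups. Rpl36al had 314 and 298 UMIs per 1000 Rpl36a UMIs in naive B cells, 725 and 980 in secreting, 699 and 560 in myeloid and 880 and 887 in plasmacytoid cells. Rpl22l1 had 315 and 286 UMIs per 1000 Rpl22 UMIs in naive B cells, 419 and 388 in cycling B, 554 and 491 in cycling T and 252 and 259 in myeloid cells. Fau, which the pattern also misses and which encodes a fusion of a ubiquitin-like part with a ribosomal protein, was lower in cycling B (as were 11.1% of all genes at 10 CPM or more), cycling T (10.2%), secreting (30.5%), myeloid (12%) and plasmacytoid cells (6.86%). It had CPM ratios of 0.379 and 0.326 in secreting and 0.630 and 0.627 in myeloid cells.

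Genes that build ribosomes were higher in cycling B cells, where most members were not. Of 17 biogenesis genes at 10 CPM or more, 13 were at least 1.5-fold higher in cycling than in naive B cells and none was lower, with a median ratio of 2.12 against 0.877 for the members. Of all genes at 10 CPM or more, 25% were higher and 11.1% lower there. Ncl, which encodes nucleolin, had 347 and 386 CPM in naive and 1243 and 1165 CPM in cycling B cells, and Nop58, of the box C/D particles that guide rRNA methylation, 48.0 and 52.4 against 172 and 162 CPM. In secreting cells 8 of 17 were higher (14.6% of all genes), but this group included dividing cells and its immunoglobulin-rich part was not counted apart. In activated B cells 2 were higher (Nhp2 and Gnl3, against 1.02% of all genes). The median ratio of the list there was 1.41, against 1.03 for all genes and 0.988 for the members. In myeloid cells 2 were higher (29.7%) and Gnl3 was lower (12%), with a median ratio of 0.898 for the list. In naive T cells of the Advanced library 4 of 17 were higher (11.1%), and both medians stood above 1, at 1.17 for the biogenesis genes and 1.32 for the members. Against naive T cells, 8 of 17 were higher in cycling T cells (37.2% of all genes) and none was lower. The median ratio of the list there was 1.59, against 1.38 for all genes and 0.673 for the members. None of the 17 was counted in activated T cells, where 1924 of all 7388 genes were higher. Genes for mitochondrial ribosomal proteins, a separate set encoded in the nucleus, were higher in 47 of 77 cases in cycling B (25% of all genes) and in 51 of 76 cases in cycling T cells (37.2%).

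Further genes whose mRNAs carry TOP tracts gave a mixed picture. Of 18, Npm1 and Hnrnpa1 were higher in cycling B cells, a smaller share than the 25% of all genes. Naive T cells of the Advanced library had 4 higher than naive B cells, which were Eef1a1, Eef1b2, Tpt1 and Npm1, against 11.1% of all genes. Secreting cells had Npm1 higher (14.6% of all genes) and Tpt1, Gas5 and Snhg8 lower (30.5% of all genes), and the median ratio of the list was 0.831 there against 0.593 for the members. These values are for the whole secreting group, which included dividing cells. Tpt1 had 7736 and 6610 CPM in naive B and 4322 and 3784 CPM in secreting cells.

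The last question was whether the share or the makeup of the pool differed between stages. The share was lower in the Advanced library in naive B cells (ratio 0.984, 0.982 to 0.985), activated B cells (0.984, 0.983 to 0.986), cycling B cells (0.986, 0.982 to 0.989) and secreting cells (0.814, 0.810 to 0.818), with cycling B cells turning to 1.02 without the 5% of cells of highest UMIs. The fall in secreting cells was that of a mixed group. In the immunoglobulin-rich cells the share was higher in the Advanced library, at 10.1% against 8.27%, and at 23.4% against 20.5% without immunoglobulin, whereas in the low-immunoglobulin cells it was 27.9% against 32.6%. The share was higher in the Advanced library in activated T cells (1.101, 1.096 to 1.105), cycling T cells (1.06, 1.05 to 1.06), plasmacytoid cells (1.04, 1.03 to 1.04) and myeloid cells (1.02, 1.02 to 1.02), the last turning to 0.992 in cells of 5000 to 10000 UMIs. With the Advanced shares weighted by the Early mix of groups, the whole library would hold 33.7% instead of 34.12%. T marker UMIs in naive B cells were higher in the Advanced library, as given above, and the part of free RNA in these ratios was not tested.

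The makeup of the pool was compared in the same way. Every member of 77 lay less than 25% above and less than 20% below its Early value in naive B, activated B, cycling B, cycling T and myeloid cells. In 3 groups some members lay outside these limits: 74 of 77 were within them in activated T cells, where ratios ran from 0.792 to 1.252, and 76 in secreting cells (0.812 to 1.34) and in plasmacytoid cells (0.790 to 1.11). Naive T cells, with 9 Early cells, also had 76 within (0.739 to 1.21). In naive B cells the ratios of pool shares, Advanced over Early, ran from 0.872 to 1.16, and the 4 highest were Rps29 (1.16), Rps28 (1.15), Rpl38 (1.11) and Rps27 (1.11). Among the 4 lowest were Rpl10 (0.872), Rps15 (0.894) and Rpl5 (0.921). In myeloid cells the highest were Rps27 (1.18), Rps29 (1.16), Rpl21 (1.13) and Rps28 (1.12), and among the 4 lowest were Rps2 (0.848), Rps27l (0.858) and Rps27a (0.902). Rps27, Rps28 and Rps29 were thus among the 4 highest in both.

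As CPM, with a threshold of 25% above or 20% below the Early value, no member was counted in naive B cells, where 2.26% of all genes were higher and 0.393% lower, nor in activated B cells (1.61% and 0.569%) or myeloid cells (4.88% and 8.33%). In activated T cells 3 members were higher (5.85% of all genes) and none was lower (14.4%). These were Rps27, from 7451 to 10270 CPM, Rps29, from 10120 to 13430 CPM, and Rps28, from 5938 to 7575 CPM. All 3 were also among the 4 highest pool ratios in naive B cells, and the comparisons share their pair of libraries.

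**Figure D5:**
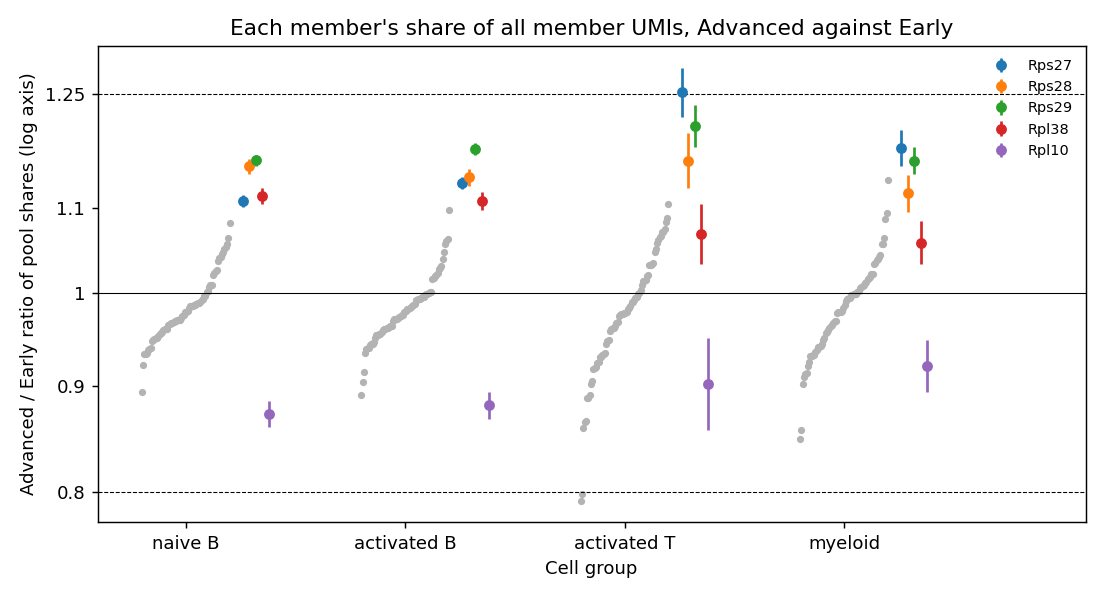
Ratio of each member's share of all ribosomal protein UMIs, Advanced over Early (vertical axis, log scale), in 4 cell groups (horizontal axis), with grey points for members and coloured points with counting intervals for 5 named ones. Dashed lines mark 25% above and 20% below 1. Rps27, Rps28, Rps29 and Rpl38 stood above 1 and Rpl10 below 1 in all 4 groups.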

How the data were processed

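The authors deposited counts, whole-number UMIs per gene and cell barcode from 10x Genomics 3′ libraries, neither normalised nor corrected for free RNA. Cell Ranger 6.0.1 stands in the file headers. In the submitters' notes on processing the versions are 3.1 and 3.1.0, beside Seurat 4.0.3 and the mm10 genome, and this was not resolved. UMIs were counted near the 3′ end, and CPM is UMIs of a gene per 1000000 UMIs of the summed cells. Cell Ranger by default leaves out reads that map equally well to several genes, which lowers counts of genes with near-identical copies. GENCODE M21 holds 290 Rpl and Rps genes named as pseudogenes (-ps). They were counted by name alone, and their parent genes were not checked.

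Cells with at least 200 genes were kept and gated on raw marker UMIs. A lineage sum had to be 3 times each other lineage sum, which leaves out mixed cells, and no doublet caller was run. The gates use B, T and myeloid lineage genes, Jchain of 10 and Xbp1 of 3 or more for secreting cells, Mki67, Top2a and Birc5 of 3 or more for cycling cells, and sums of activation genes for activated and naive cells. Cells with 2 or more UMIs of Rag1, Dntt, Vpreb1 and Igll1 were set aside as early lymphoid.

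Shares have Clopper-Pearson and ratios exact conditional intervals (Python 3.11.15, scipy 1.17.1), and TMM factors came from edgeR 4.0.16. The calculation was tested on simulated data. The members, lists and comparisons were chosen with earlier results of these data known. Members named were a fixed set, those under 10 CPM, up to 6 higher and 6 lower uneven members per comparison, and the 4 highest and lowest stage ratios in naive B and myeloid cells. Some members these rules name are not reported here and not drawn, though counts over the members include them. Groups under 20 cells gave values only. Ratios of 2 genes are compared between groups, never read as levels.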

Additional observations from a re-analysis of the deposited data

Results flagged for a closer look

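With 1 library per stage, the share of UMIs in ribosomal protein genes moved in opposite directions between stages in different cell groups, and this difference was not tested. The ratio of Advanced to Early was 0.984 in naive B, 0.984 in activated B, 0.986 in cycling B and 0.814 in secreting cells as a mixed group. In the secreting cells of 40% immunoglobulin or more the share went the other way, from 8.27% to 10.1%. The ratio was 1.101 in activated T, 1.06 in cycling T, 1.02 in myeloid and 1.04 in plasmacytoid cells. Median UMIs per cell and T marker UMIs in naive B cells also differed between the stages, as given above. The part of gate, depth and free RNA in these ratios was not tested.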

How the results depend on the processing

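Ratios are given as the geometric mean of both libraries where both were compared. Every share between cell groups kept its direction under the alternatives run. With totals without immunoglobulin and mitochondrial genes the share ratio to the reference was 0.983 in activated B, 0.835 in cycling B, 0.772 in secreting, 1.27 in naive T, 0.777 in activated T, 0.660 in cycling T, 0.609 in myeloid and 0.708 in plasmacytoid cells. With each cell weighted equally it was 0.988, 0.822, 0.558, 1.29, 0.737, 0.647, 0.587 and 0.693 in the same order. In cells of 5000 to 10000 UMIs it was 0.969 in activated B, 1.28 in naive T, 0.714 in activated T and 0.481 in myeloid cells. With gates of double strength it was 0.978 in activated B, 0.824 in cycling B, 0.472 in secreting, 0.7002 in activated T, 0.643 in cycling T and 0.632 in myeloid cells, and without the 5% of cells of highest UMIs 0.980 in activated B, 0.762 in cycling B, 0.760 in activated T and 0.557 in myeloid cells. Between stages, without immunoglobulin and mitochondrial genes, it was 0.986 in naive B, 0.987 in activated B and 0.872 in secreting cells. With cells weighted equally it was 0.971 in naive B, 0.981 in activated B, 0.970 in cycling B, 0.858 in secreting, 1.05 in activated T, 1.03 in cycling T, 1.03 in myeloid and 1.12 in plasmacytoid cells. In cells of 5000 to 10000 UMIs it was 0.985 in naive B, 0.977 in activated B and 1.06 in activated T cells, and it turned to 0.992 in myeloid cells. Gates of double strength gave 0.982 in activated B, 0.966 in cycling B, 1.02 in activated T, 1.01 in cycling T and 1.01 in myeloid cells. Without the 5% of cells of highest UMIs it was 0.989 in activated B, 1.12 in activated T and 1.104 in myeloid cells, and it turned to 1.02 in cycling B cells. The cause of these moves was not tested.

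Uneven members at the lower threshold of 25% above or 20% below the reference numbered 22 in cycling B, 23 in secreting, 7 in naive T, 26 in cycling T, 17 in myeloid and 16 in plasmacytoid cells, and at 2-fold 1, 2, 0, 3, 1 and 2. A minimum of 10 CPM gave 2 in naive T cells. In alternatives chosen after seeing the data, secreting cells of 40% immunoglobulin or more gave 5, and leaving out the cell of most UMIs of each gene gave 7 in secreting and 5 in plasmacytoid cells. With totals without immunoglobulin, mitochondrial and member genes, members counted lower as CPM numbered 12 in cycling B, 23 in secreting, 51 in activated T, 65 in cycling T, 69 in myeloid and 45 in plasmacytoid cells, and 44 were higher in naive T cells. With TMM factors they numbered 30, 28, 50, 71, 59 and 56, and 33. A minimum of 10 CPM gave 2 higher in myeloid cells. Between stages a 1.1-fold threshold gave 2 higher and 4 lower in naive B, 3 and 5 in activated B, 28 and 1 in activated T and 6 and 3 in myeloid cells. In activated T cells 6 were higher without immunoglobulin, mitochondrial and member genes, 7 with TMM factors and 0 at 1.5-fold, and 1 was lower at 10 CPM or more. TMM factors gave 1 higher in myeloid cells. The shares of all genes under the other totals, TMM factors and other fold thresholds are not given. The CPM counts under them are therefore not read as results about the members.

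No paired analysis was possible because each stage was 1 pooled library. Secreting, cycling T and plasmacytoid cells numbered under 50 in each library, and the 9 Early naive T cells left the T cell comparisons to the Advanced library.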
